A study of Mus musculus with 23 samples.

Results

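The genes described are those of the mitochondrial ribosomal proteins, taken as every gene symbol of the array annotation that starts with Mrpl or Mrps and a number. Among 19938 symbols with a probe set of their own, 77 met this rule, 48 with large subunit symbols (Mrpl) and 29 with small subunit symbols (Mrps). For each symbol the probe set of highest mean over the 23 arrays was used. The symbols fit the name with a few exceptions known from the structure of the mammalian mitoribosome. Mrps18a and Mrps30 belong to the large subunit despite their symbols, and Mrps36 is a component of the 2-oxoglutarate dehydrogenase complex. Mrpl53 was not named here because its probe set carries several symbols.

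The mitoribosome translates the few messages of the mitochondrial genome, all of them for subunits of the respiratory chain and ATP synthase. Its RNAs come from the mitochondrial genome, whereas every one of its proteins is encoded in the nucleus, made in the cytosol and imported. Compared with bacterial ribosomes it has lost RNA and gained proteins, so that its members fall into those with a bacterial counterpart and those found only in mitochondria. Inhibitors of mitochondrial translation such as tigecycline slow the growth of human acute myeloid leukemia cells in culture.

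Total RNA of mouse bone marrow was measured on 1-colour arrays, with 1 array per sample. All mice had received a single dose of 2 Gy at 2 months of age, wild-type (WT) controls included, so no unirradiated sample enters any comparison. Pax5+/- mice carry 1 functional copy of Pax5, which encodes the transcription factor that holds cells in the B lineage. The groups were preleukemic pro-B and pre-B cells of Pax5+/- mice (n = 7) and of WT mice (n = 3), taken 3 weeks after the dose, and leukemic samples of Pax5+/- mice (n = 10) and of WT mice (n = 3). The labels call the leukemic samples pro-B cells in one place and leukemic marrow in another, state no sort, and give neither sex, strain nor age at leukemia. A further WT leukemia, sample 16, was not analysed here.

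The log2 signal of Pax5 lay between 11.31 and 11.53 in Pax5+/- preleukemic samples and between 11.45 and 12.06 in WT preleukemic samples. It ranged from 6.85 to 11.42 in Pax5+/- leukemias and from 6.32 to 10.78 in WT leukemias. Array medians lay between 6.06 and 6.2. WT preleukemic sample 20 stood apart, with a mean log2 signal of neutrophil markers of 10.7 against 6.55 and 6.61 in samples 18 and 19. WT leukemias 15 and 17 had erythroid marker means of 9.00 and 9.14 against 6.93 in leukemia 14. Leukemia 15 also had a T and NK cell marker mean of 8.67, against 5.87 and 6.14 in leukemias 14 and 17. Its B cell precursor marker mean was 8.75, against 10.25 and 10.31, and its Pax5 signal 6.32, against 10.68 and 10.78. Xist exceeded the Y-linked Eif2s3y in 3 of 7 Pax5+/- preleukemic samples, 5 of 10 Pax5+/- leukemias, 0 of 3 WT preleukemic samples and 3 of 3 WT leukemias, so sex and stage cannot be told apart within WT.

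The promoter sequences of 7 members are shown because their genes include the clearest rises and falls described below, with and without the best known binding letters of this gene class. RefSeq windows of the GRCm38.p6 build, which run from 250 bases before to 50 bases after a gene's start, were matched to 68 members (74 windows, since some genes have several starts). Each line gives the 100 bases before the start, 5′ to 3′ on the strand of the gene. Capitals mark the letters CCGGAAGT, bound by ETS factors such as GABP, or their reverse complement, and in Mrpl9 the palindrome bound by NRF1. The members shown were chosen after their values had been seen.
Mrpl3: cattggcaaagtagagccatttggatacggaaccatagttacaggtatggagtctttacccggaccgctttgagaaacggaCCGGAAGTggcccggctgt
Mrps22: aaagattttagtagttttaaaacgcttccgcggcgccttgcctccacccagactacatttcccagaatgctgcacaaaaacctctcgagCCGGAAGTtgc
Mrps27: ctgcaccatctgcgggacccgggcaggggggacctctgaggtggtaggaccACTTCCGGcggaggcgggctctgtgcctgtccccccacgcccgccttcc
Mrpl43: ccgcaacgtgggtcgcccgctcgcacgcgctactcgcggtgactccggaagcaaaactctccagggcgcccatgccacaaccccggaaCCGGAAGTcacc
Mrps15: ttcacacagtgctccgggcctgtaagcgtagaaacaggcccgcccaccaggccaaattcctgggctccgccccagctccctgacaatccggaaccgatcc
Mrpl49: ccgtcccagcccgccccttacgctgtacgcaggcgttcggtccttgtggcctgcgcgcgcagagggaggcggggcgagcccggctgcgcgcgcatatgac
Mrpl9: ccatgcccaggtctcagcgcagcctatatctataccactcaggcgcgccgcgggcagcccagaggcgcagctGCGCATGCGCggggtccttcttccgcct

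These stretches lie at chr9:105053168-105053267 (plus strand, Mrpl3), chr9:98601680-98601779 (minus strand, Mrps22), chr13:99344686-99344785 (plus strand, Mrps27), chr19:45006443-45006542 (minus strand, Mrpl43), chr4:126046828-126046927 (plus strand, Mrps15), chr19:6057756-6057855 (minus strand, Mrpl49) and chr3:94443236-94443335 (plus strand, Mrpl9). The ETS letters begin at position -19 from the start in Mrpl3, -11 in Mrps22, -12 in Mrpl43 and, on the opposite strand, -49 in Mrps27. Mrpl3, Mrps22 and Mrps27 were higher in leukemia and Mrpl43 was lower, so the same letters stood before genes of both directions. The stretches of Mrps15, among the members that rose most, and of Mrpl49, the member that fell most, hold neither set of letters. The NRF1 letters of Mrpl9 begin at position -28.

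In Pax5+/- mice, leukemic samples had more mitochondrial ribosomal protein RNA than preleukemic samples for many members, by small steps. Of the 77 members, 32 (41.6%) were higher and 7 (9.09%) lower at an adjusted p under 0.05 by limma, adjusted by the Benjamini-Hochberg method over the 15542 genes that were tested. Among all genes tested 28% were higher and 36.5% lower. The median member differed by 0.16 on the log2 scale, against -0.05 for all genes tested, and single members ran from -0.81 (Mrpl49) to 0.89 (Mrps6). The 75th percentile of the arrays ran from 8.1 to 8.22 in Pax5+/- preleukemic samples and from 8.24 to 8.3 in Pax5+/- leukemias, which do not overlap. With quantile normalization 24 members (31.2%, against 26.6% of all genes) were higher in Pax5+/- leukemia, and the member median was 0.06. None of the 77 members passed 2-fold, which 9.92% of all genes tested did, and 9 members passed 1.5-fold, a count not taken over all genes. All 77 members passed the filter on low values, and 71 lay above the median of their array on every array.

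**Figure D1:**
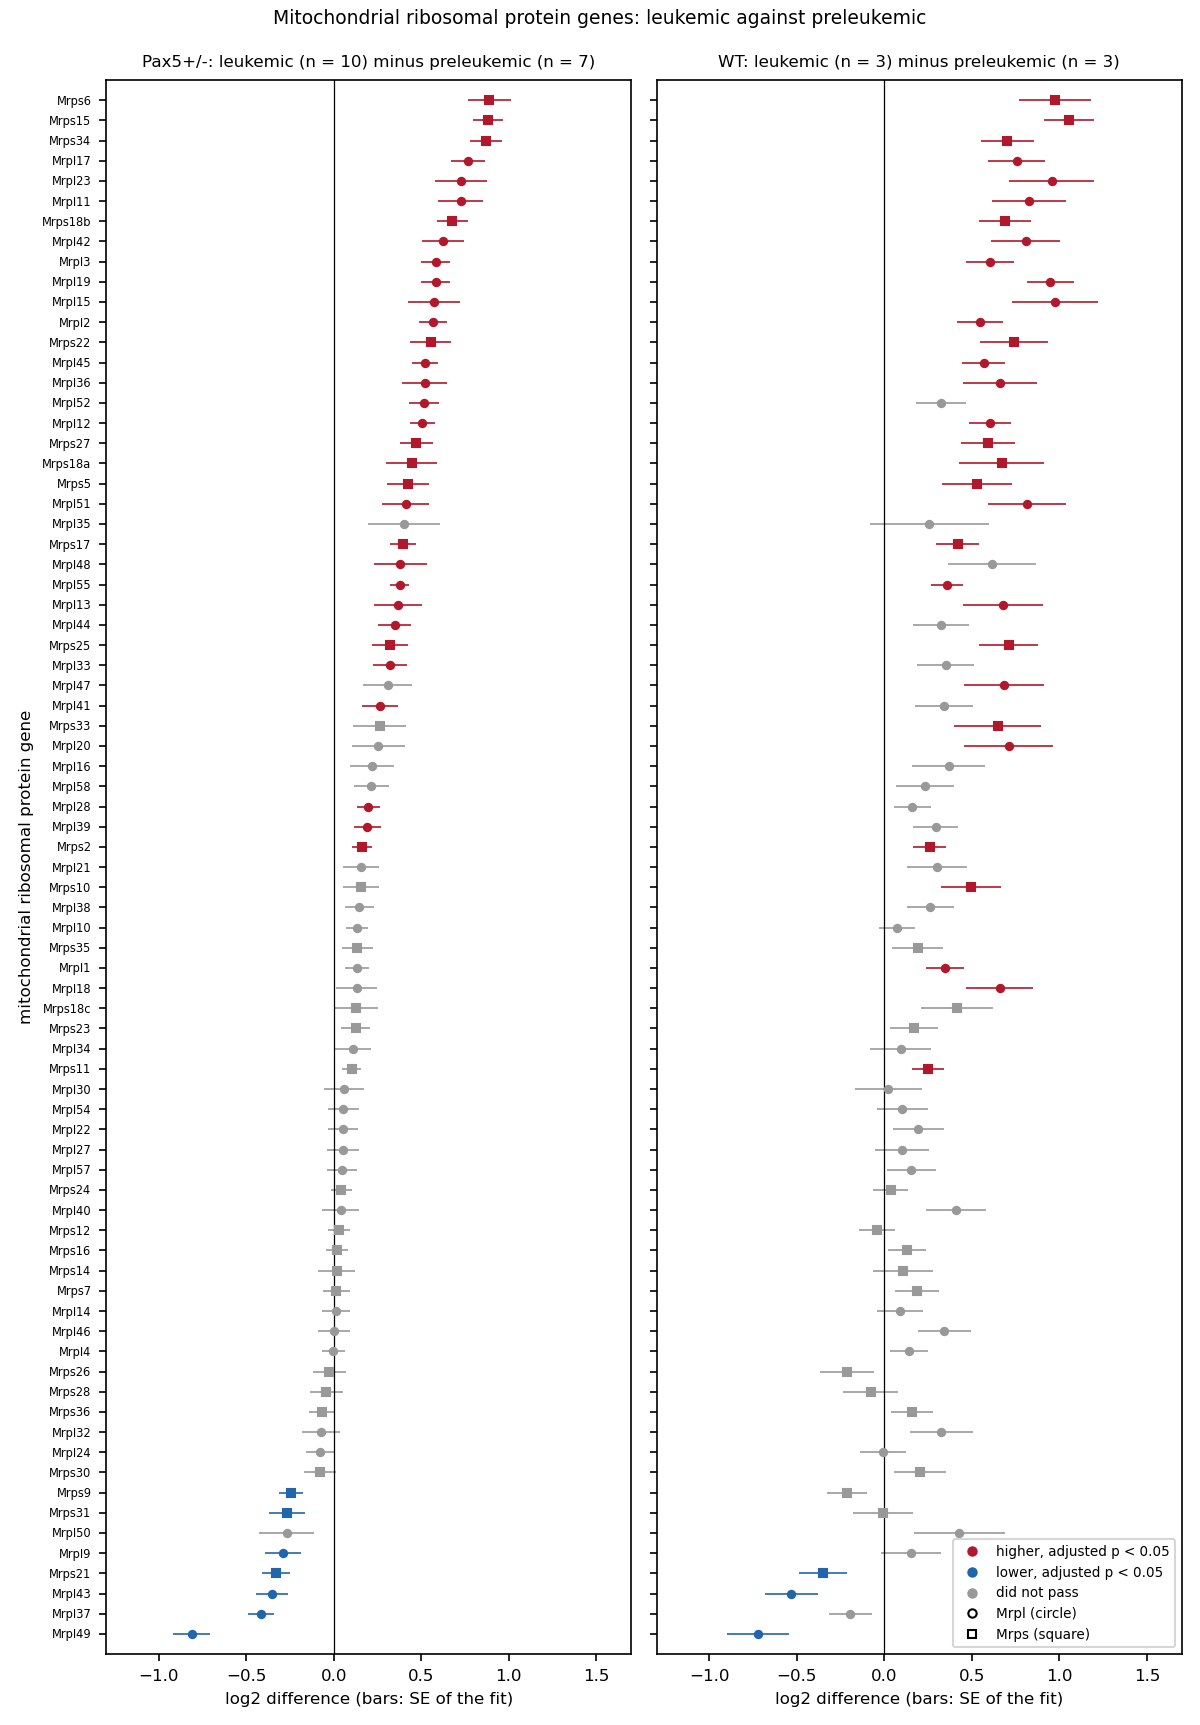
Difference of each of the 77 members between leukemic and preleukemic samples on the log2 scale (horizontal axis), at left in Pax5+/- mice and at right in WT mice, with the standard error of the limma fit as bars. Members stand in the order of their Pax5+/- difference, circles are Mrpl and squares Mrps symbols, and colours mark those past an adjusted p of 0.05: 32 higher and 7 lower in Pax5+/- mice, and 32 higher and 3 lower in WT mice.

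RNA of cell type markers and of mitosis genes differed along with these values. Among all genes tested 28% were higher and 36.5% lower in Pax5+/- leukemia. In the same Pax5+/- comparison all 19 mitosis genes measured were higher, with a median difference of 1.30, and so were 6 of 6 megakaryocyte, 8 of 10 monocyte, 9 of 10 neutrophil and 9 of 10 stroma markers, while 7 of 12 B cell precursor markers were lower. Of 7 erythroid markers 1 was higher and 1 lower, and of 9 T and NK cell markers 1 was higher. The mean log2 signal of the mitosis genes lay between 7.86 and 8.45 in Pax5+/- preleukemic samples and between 8.82 and 9.80 in Pax5+/- leukemias, and that of the megakaryocyte markers between 6.81 and 7.01 and between 8.12 and 11.1. The monocyte marker mean lay between 6.496 and 6.613 and between 7.41 and 9.64, that of stroma between 6.51 and 6.65 and between 7.70 and 9.36, and that of B cell precursors between 11.06 and 11.48 and between 9.71 and 10.8. The neutrophil marker mean overlapped, at 6.27 to 6.89 and 6.30 to 11.1. With the mean of the mitosis genes as a covariate, 12 members (15.6%) were higher, against 13.2% of all genes tested. With the first principal component of the non-B-cell markers as a covariate, 21 members (27.3%) were higher, against 11.8% of all genes, and 0 were lower. The means of the mitosis genes and of the megakaryocyte, monocyte and stroma markers did not overlap between the Pax5+/- stages. These fits therefore cannot separate division or cell mix from stage. Whether division or other cell types carry the member differences was not tested. In such bulk RNA a smaller share of cells of a type and less RNA per cell cannot be told apart.

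Among the small subunit members with a bacterial counterpart, Mrps15 and Mrps6 rose most. Mrps15, which binds the small subunit rRNA, had a log2 signal of 8.99 at the lowest, 9.07 at the median and 9.23 at the highest of the Pax5+/- preleukemic samples, and of 9.67, 9.92 and 10.27 in the leukemias. Every leukemia thus lay above every preleukemic sample. The fitted difference was 0.88 (SE 0.09), 1.84-fold, with a limma adjusted p of 2.85e-08. Mrps6, a protein at the edge of the small subunit, ran from 6.98 over 7.37 to 7.69 before leukemia and from 7.85 over 8.275 to 8.70 in leukemia, again without overlap, a difference of 0.89 (SE 0.12, limma adjusted p = 3.34e-06). In WT mice Mrps15 read 8.75, 9.02 and 9.42 before leukemia and 9.99, 10.15 and 10.21 in leukemia, and Mrps6 read 7.65, 7.71 and 7.98 against 8.55, 8.75 and 8.96. The WT groups did not overlap for either gene, and Mrps15, with 2.08-fold, was the single member past 2-fold in WT mice.

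Among all 15 small subunit members with a bacterial counterpart 5 rose (33.3%, against 28% of all genes tested) and 2 fell (13.3%, against 36.5%) in Pax5+/- mice, with a median of 0.10. In WT mice 7 rose (46.7%, against 17.9%) and 1 fell (6.67%, against 19.3%), with a median of 0.25. Besides Mrps15 and Mrps6, the members that rose in both were Mrps5, by 0.425 (SE 0.12) and 0.53 (SE 0.20), Mrps17, by 0.39 (SE 0.07) and 0.42 (SE 0.12), and Mrps2, by 0.16 (SE 0.06) and 0.26 (SE 0.09). Mrps12, part of the decoding centre, differed by 0.03 (SE 0.06) in Pax5+/- mice and -0.04 (SE 0.10) in WT mice and passed in neither. Mrps16, mutated in a human disorder of mitochondrial translation, differed by 0.02 (SE 0.07) and 0.13 (SE 0.11), and also did not pass. Mrps21, a small protein with a bacterial counterpart, fell by 0.33 (SE 0.08, limma adjusted p = 0.00161) in Pax5+/- mice. In WT mice it fell by 0.35 (SE 0.14, limma adjusted p = 0.0476), a call lost under 27 of 39 alternatives, most left-out samples among them (adjusted p from 0.0168 to 0.698 over the alternatives). Its Pax5+/- values ran from 9.98 over 10.13 to 10.24 before leukemia and from 9.40 over 9.82 to 10.21 in leukemia, so the groups overlapped. Mrps9, of the small subunit head, fell by 0.24 (SE 0.07) in Pax5+/- mice and read -0.21 (SE 0.11) in WT mice, where it did not pass.

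Of the 10 small subunit members found only in mitochondria, 5 rose (50%, against 28% of all genes tested) and 1 fell (10%, against 36.5%) in Pax5+/- mice, with a median of 0.29. In WT mice 6 rose (60%, against 17.9%) and 0 fell (against 19.3%), with a median of 0.62. Mrps34, mutated in human Leigh syndrome, rose most of them in Pax5+/- mice. Its log2 signal was 6.53 at the lowest, 6.73 at the median and 7.07 at the highest of the Pax5+/- preleukemic samples, and 7.30, 7.645 and 7.89 in the leukemias. The groups were separate, and the difference was 0.87 (SE 0.09), 1.83-fold, with a limma adjusted p of 8.3e-08. Mrps22 and Mrps27, the latter an RNA-binding protein of the pentatricopeptide repeat class, rose by 0.55 (SE 0.12) and 0.47 (SE 0.09) in Pax5+/- mice and by 0.74 (SE 0.19) and 0.59 (SE 0.15) in WT mice. Mrps31 was the member of this group that fell in Pax5+/- mice, by 0.27 (SE 0.10, limma adjusted p = 0.0306). Under 7 of 39 alternatives, median centring and single left-out samples among them, that call was lost. In WT mice Mrps31 read -0.01 (SE 0.17) and did not pass.

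Mammals have 3 relatives of the bacterial small subunit protein S18, of which Mrps18a and Mrps18b rose in both genotypes. Mrps18b, the relative found at another place of the small subunit, ran from 8.42 over 8.71 to 8.85 before leukemia and from 8.96 over 9.33 to 9.65 in Pax5+/- leukemia. These groups did not overlap, and the difference was 0.68 (SE 0.09, limma adjusted p = 1.56e-06). Mrps18a, the relative built into the large subunit, rose by 0.45 (SE 0.15, limma adjusted p = 0.0112), with leukemias 2 and 6 at 8.81 and 8.83, below the preleukemic range of 8.88 to 9.30. Mrps18c, which takes the place of the bacterial protein, differed by 0.13 (SE 0.12) in Pax5+/- mice and 0.41 (SE 0.21) in WT mice and passed in neither. In WT mice Mrps18b read 8.63, 8.67 and 8.75 before leukemia and 9.09, 9.45 and 9.58 in leukemia. Mrps18a read 8.79, 8.81 and 9.11 against 9.23, 9.55 and 9.94, and its WT call was lost under 6 of 39 alternatives. Differences between these 3 genes were not tested.

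Of the 29 large subunit members with a bacterial counterpart, 12 rose (41.4%, against 28% of all genes tested) and 1 fell (3.45%, against 36.5%) in Pax5+/- mice, with a median of 0.22. In WT mice 14 rose (48.3%, against 17.9%) and 0 fell (against 19.3%), with a median of 0.35. Mrpl17 rose most among them in Pax5+/- mice. Its log2 signal ran from 7.05 over 7.33 to 7.55 before leukemia and from 7.71 over 8.055 to 8.40 in leukemia, without overlap, a difference of 0.77 (SE 0.10, limma adjusted p = 1.04e-06). Mrpl12, the stalk protein that recruits translation factors and in human cells also binds the mitochondrial RNA polymerase, ran from 8.32 over 8.52 to 8.59 and from 8.87 over 8.905 to 9.36, again without overlap. It rose by 0.51 (SE 0.07, limma adjusted p = 3.75e-06) in Pax5+/- mice and by 0.60 (SE 0.12) in WT mice, where the samples read 8.44, 8.49 and 8.58 against 8.95, 9.14 and 9.23. Mrpl11, at the base of the same stalk, rose by 0.72 (SE 0.13) and 0.83 (SE 0.21), and Mrpl3, near the peptidyl transferase centre, by 0.58 (SE 0.08) and 0.60 (SE 0.14).

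Mrpl23, a protein of the tunnel exit, rose by 0.73 (SE 0.15) in Pax5+/- mice and by 0.96 (SE 0.24) in WT mice. Mrpl19 and Mrpl15, both with bacterial counterparts, were among the members of largest rise in WT mice. Mrpl19 read 7.88, 7.94 and 8.16 before leukemia and 8.77, 8.99 and 9.06 in leukemia, a difference of 0.95 (SE 0.13, limma adjusted p = 2.17e-05), against 0.58 (SE 0.08) in Pax5+/- mice. Mrpl15 differed by 0.97 (SE 0.24) in WT and 0.57 (SE 0.15) in Pax5+/- mice. For Mrpl19 and Mrpl15 the WT groups did not overlap. Mrpl9 was the member of this class that fell in Pax5+/- mice, by 0.29 (SE 0.10, limma adjusted p = 0.0187), and it read 0.15 (SE 0.17) in WT mice, where it did not pass.

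The large subunit members found only in mitochondria held the largest falls. Of 20 such members 9 rose (45%, against 28% of all genes tested) and 3 fell (15%, against 36.5%) in Pax5+/- mice, with a median of 0.17. In WT mice 4 rose (20%, near the 17.9% of all genes) and 2 fell (10%, against 19.3%), with a median of 0.32. Mrpl49 ran from 9.60 over 10.08 to 10.18 in Pax5+/- preleukemic samples and from 8.67 over 9.185 to 9.39 in leukemia, so that every leukemia lay below every preleukemic sample. It fell by 0.81 (SE 0.11), 1.75-fold, with a limma adjusted p of 1.67e-06. In WT mice it read 9.50, 9.88 and 10.03 against 8.88, 9.11 and 9.25, a fall by 0.72 (SE 0.18, limma adjusted p = 0.00348), also without overlap.

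Mrpl43 fell in both genotypes, by 0.35 (SE 0.09, limma adjusted p = 0.00234) in Pax5+/- mice and by 0.53 (SE 0.15, limma adjusted p = 0.00981) in WT mice. Its Pax5+/- values ran from 8.40 over 8.65 to 8.87 and from 8.16 over 8.315 to 8.58 and overlapped, whereas the WT values of 8.46, 8.75 and 9.04 lay above those of 7.92, 8.35 and 8.39. Mrpl37, which pairs with Mrps30 in the large subunit, fell by 0.41 (SE 0.07, limma adjusted p = 5.37e-05) in Pax5+/- mice and read -0.19 (SE 0.12) in WT mice, where it did not pass. Mrps30 itself read -0.08 (SE 0.09) and 0.20 (SE 0.15) and passed in neither. With the non-B-cell marker component as a covariate, Mrpl43 read 0.08 and Mrpl9 0.26, and none of the 7 falls passed.

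Mrpl45, which anchors the mitoribosome at the inner membrane beside the tunnel exit, rose by 0.52 (SE 0.07, limma adjusted p = 3.47e-06) in Pax5+/- mice and by 0.57 (SE 0.12) in WT mice. Mrpl44, which carries a fold of the ribonuclease III family, rose by 0.35 (SE 0.10) in Pax5+/- mice and read 0.32 (SE 0.16, limma adjusted p = 0.115) in WT mice. Mrpl42 and Mrpl51 rose in both, by 0.63 (SE 0.12) and 0.41 (SE 0.13) in Pax5+/- mice and by 0.81 (SE 0.20) and 0.81 (SE 0.22) in WT mice. Mrpl41, a surface protein of the large subunit, rose by 0.26 (SE 0.10, limma adjusted p = 0.0259) in Pax5+/- mice, but read -0.03 with the mitosis genes as a covariate. Mrpl58, a peptidyl-tRNA hydrolase that frees stalled mitoribosomes, read 0.21 (SE 0.10, limma adjusted p = 0.0674) and 0.23 (SE 0.17). Mrps36, of the dehydrogenase complex, read -0.07 (SE 0.07) and 0.16 (SE 0.12). Neither Mrpl58 nor Mrps36 passed.

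**Figure D2:**
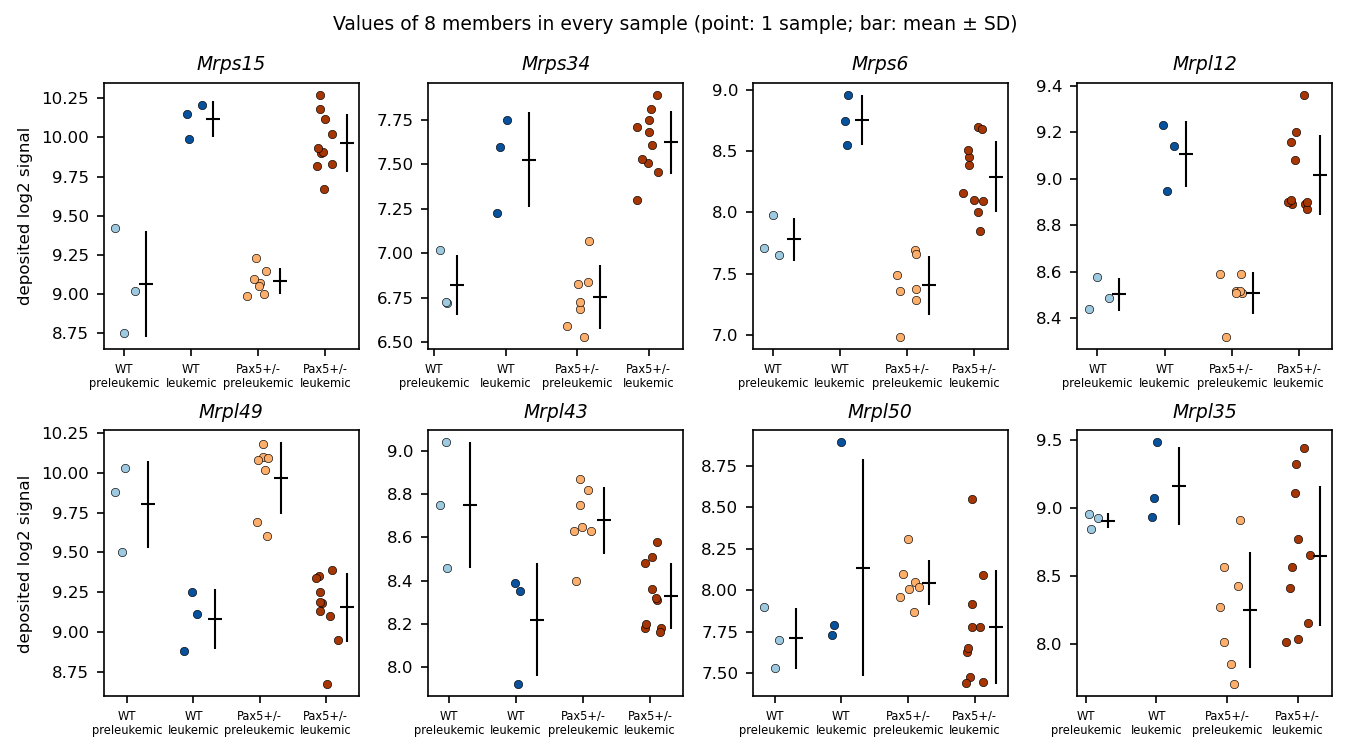
Deposited log2 signal (vertical axes) of 8 members in each of the 23 samples, by group, with the mean and SD of each group beside its points. The leukemic points of Mrps15, Mrps34, Mrps6 and Mrpl12 lie above all preleukemic points of their genotype, those of Mrpl49 lie below them, and those of Mrpl50 and Mrpl35 overlap them.

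In Pax5+/- mice whole separation of the groups was less common than a call. Every leukemia lay above every preleukemic sample for 14 members (18.2%, against 11.7% of all genes tested) and below for 1 member, Mrpl49 (1.3%, against 10.8%). Beside those described, the separated members were Mrpl2, Mrpl3, Mrpl19, Mrpl23, Mrpl45, Mrpl52, Mrpl55 and Mrps22. In WT mice, with 3 samples a group, separation upwards was seen for 34 members (44.2%, against 21.1%) and downwards for 3 (3.9%, against 23.3%).

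WT mice showed rises of similar number. Leukemic WT samples had 32 members higher (41.6%, against 17.9% of all genes tested) and 3 lower (3.9%, against 19.3%) by limma. The median difference was 0.33, against -0.06 for all genes. Past 2-fold was 1 member, against 9.18% of all genes, and past 1.5-fold 24, a count not taken over all genes. Without WT leukemia 14 or without WT leukemia 15 the number higher was 20, and without WT leukemia 17 or WT preleukemic sample 19 the number lower was 1. The shares of all genes called with these samples left out are not given here. With the mean of the mitosis genes as a covariate 5 members (6.49%, against 6.16% of all genes) were higher, and with the non-B-cell marker component 21 (27.3%, against 7.61%). In the same WT comparison 18 of 19 mitosis genes, 6 of 6 megakaryocyte, 6 of 10 monocyte, 8 of 10 stroma and 4 of 7 erythroid markers were higher. Of the neutrophil markers 0 of 10 and of the T and NK cell markers 0 of 9 were called, and 8 of 12 B cell precursor markers were lower. The mitosis gene mean of sample 20, 9.58, lay within the WT leukemic range of 9.40 to 9.75 and above the 7.60 and 7.74 of samples 18 and 19. The median log2 signal over the members was 8.28 in sample 20, against 8.28 and 8.11 in samples 18 and 19. The mean over the Mrpl symbols was 8.39, against 8.31 and 8.345, and over the Mrps symbols 7.93, against 7.87 and 7.88. Above the group median lay 36 members in sample 20, 20 in sample 18 and 20 in sample 19. Whether division carries the member values was not tested.

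The comparisons of the genotypes have no sample in common. Higher in both were 25 members (32.5%, against 16.3% of all genes tested) and lower in both were Mrpl43, Mrpl49 and Mrps21 (3.9%, against 17.2%). The WT call of Mrps21 was lost under 27 of 39 alternatives, that of Mrpl43 under 6 and that of Mrpl49 under 2, both of them covariate fits. Lower past the threshold in Pax5+/- mice alone were Mrpl37, Mrpl9, Mrps31 and Mrps9. Past the threshold and higher only in Pax5+/- mice were Mrpl28, Mrpl33, Mrpl39, Mrpl41, Mrpl44, Mrpl48 and Mrpl52, and only in WT mice Mrpl1, Mrpl18, Mrpl20, Mrpl47, Mrps10, Mrps11 and Mrps33. The WT calls of Mrpl1, Mrpl18, Mrps10 and Mrps11 were lost under 8, 4, 9 and 9 of 39 alternatives. In Pax5+/- mice those of Mrpl28 and Mrpl44 were lost under 3 and 2. That of Mrpl41 was lost under 4 and changed sign under 1. Members past the threshold in 1 genotype only are not shown to differ between genotypes. None of the 77 members passed the interaction test (0.0965% of all genes did), and the smallest limma adjusted p was 0.636. At an unadjusted p under 0.05 there were 4 members (5.19%, against 7.19% of all genes). Regardless of any test, 70 of 77 members had the same sign in both genotypes. For 60 the signed difference was lower in Pax5+/- than in WT mice, which includes falls that were larger in Pax5+/- mice. These counts were not taken over all genes tested. The median interaction was -0.10 for the members and 0.0065 for all genes tested. Across the 77 members the differences of the genotypes correlated with r = 0.868, against 0.904 across all genes tested. This describes genes that share samples and is no test.

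**Figure D3:**
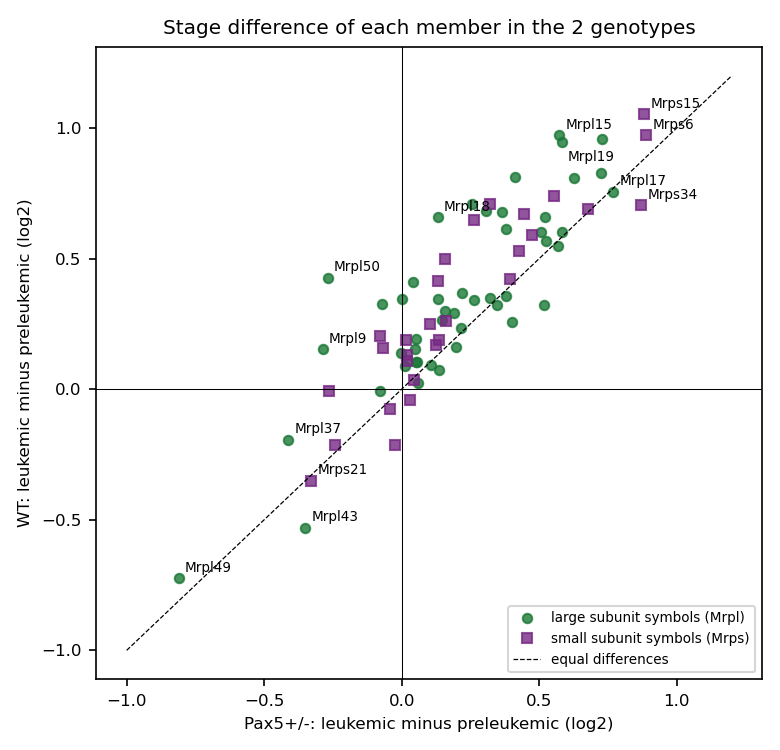
Difference between leukemic and preleukemic samples on the log2 scale in Pax5+/- mice (horizontal axis) and in WT mice (vertical axis) for the 77 members, with circles for Mrpl and squares for Mrps symbols. The dashed line marks equal differences, and 60 of 77 members lie above it.

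The member farthest from that line was Mrpl50, a mitochondria-specific large subunit protein. It read 7.53, 7.70 and 7.90 in WT preleukemic samples and 7.73, 7.79 and 8.89 in WT leukemias, the highest being leukemia 14. In Pax5+/- mice it ran from 7.87 over 8.02 to 8.31 before leukemia and from 7.44 over 7.715 to 8.55 in leukemia. All 4 ranges overlap with another, and neither stage difference (-0.27, SE 0.16, and 0.43, SE 0.26) nor the interaction (-0.70) passed. Mrpl18 and Mrpl19, the other members of smallest interaction p, had interactions of -0.53 and -0.36 and did not pass.

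Pax5+/- and WT samples of the same stage did not differ in any member past the threshold. Before leukemia 0 of 77 members were called by limma (0.624% of all genes tested were), with a median difference of 0.07. At an unadjusted p under 0.05 there were 9 members (11.7%, against 8.97% of all genes). The smallest limma adjusted p, 0.144, belonged to Mrps10, at 7.59 to 8.33 in Pax5+/- and 7.08 to 7.77 in WT preleukemic samples, a difference of 0.51 with overlapping groups. The next, Mrps11 and Mrpl1, differed by 0.24 each. In leukemia 0 members were called (0.341% of all genes were), with a median of -0.05 and 1 member (1.3%, against 5.89%) at an unadjusted p under 0.05. That member was Mrps6, at 7.85 to 8.70 in Pax5+/- and 8.55 to 8.96 in WT leukemias, a difference of -0.46 (limma adjusted p = 0.505), and it had the same sign before leukemia (-0.38). Mrpl30 (-0.30) and Mrpl35 (-0.52) followed.

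Within many Pax5+/- samples of both stages, most members tended to lie high or low together. The median log2 signal over the 77 members ran from 8.38 in leukemia 3 to 8.77 in leukemia 9, against 8.20 to 8.49 in Pax5+/- preleukemic samples, 8.11 to 8.28 in WT preleukemic samples and 8.43 to 8.75 in WT leukemias. In leukemia 9 the signal of 72 of 77 members lay above the median of its group, and in leukemias 7 and 10 that of 65. In leukemias 1, 6 and 3 only 10, 12 and 13 members did. Among the Pax5+/- preleukemic samples, 60 members lay above the group median in sample 12, against 6 in sample 21 and 11 in sample 24. Among the WT leukemias, 2 members of leukemia 17 lay above the group median and 65 below it. Such counts were not taken over all genes tested. Leukemia 9 had the lowest mean of the monocyte markers among the Pax5+/- leukemias, 7.41, and leukemia 6 the highest mean of the neutrophil markers, 11.1. Leukemia 4 had the lowest neutrophil marker mean, 6.30, and a monocyte marker mean of 7.775, yet 19 members above the group median. The mitosis gene mean was 9.71 in leukemia 9, 9.60 in leukemia 1, 8.96 in leukemia 6 and 8.82 in leukemia 4. The part of other cell types or of division in the members' values was not tested.

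**Figure D4:**
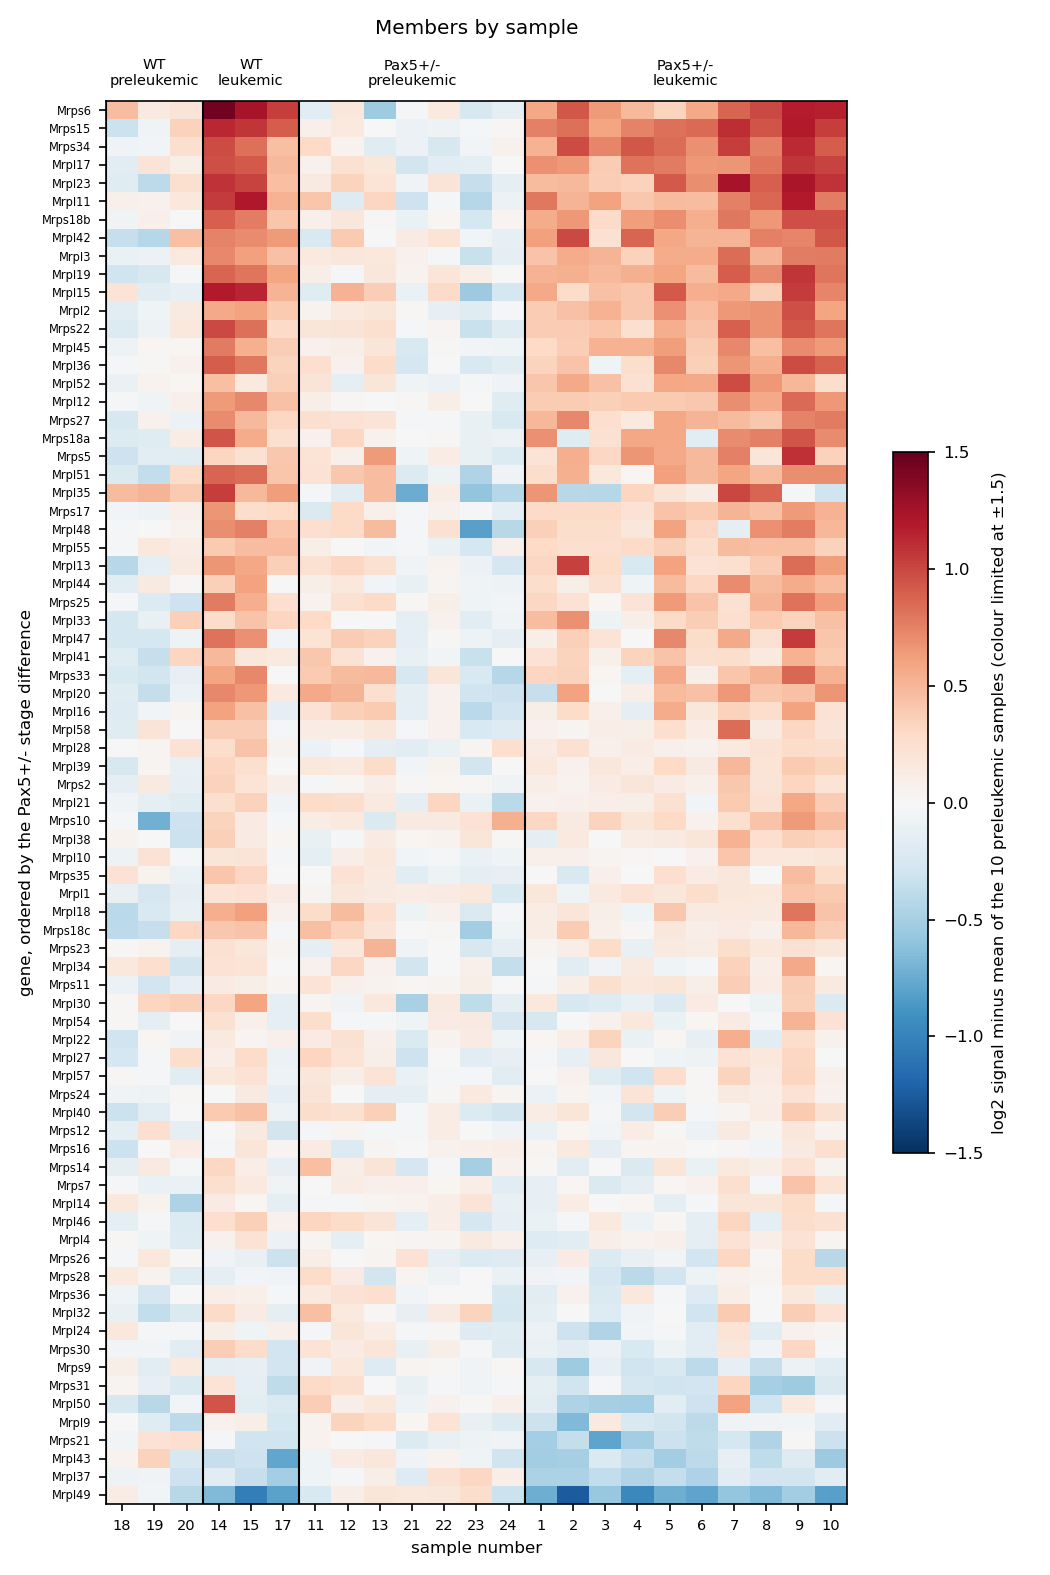
Log2 signal of each member (rows, in the order of the Pax5+/- difference) in each sample (columns, by sample number and group) minus the mean of the 10 preleukemic samples, red for higher and blue for lower. Leukemias 7, 9 and 10 and WT leukemias 14 and 15 are red over most rows, and Mrpl49 is blue in all leukemias of both genotypes.

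Mouse numbers of the Pax5+/- samples start with a letter in the labels, whose meaning is not stated. Pax5+/- leukemias of letter U (samples 1 to 5) had member medians of 8.38 to 8.52, those of letter Y (6 to 9) 8.51 to 8.77, and leukemia 10, of letter L, 8.61. Letter L also holds 3 preleukemic samples. Within it the median member differed by 0.33, against -0.05 for all genes, and 64 of 77 members were higher in the leukemia. That count was not taken over all genes and rests on leukemia 10 alone. In leukemia 10, 65 members lay above the median of the Pax5+/- leukemias. Letter I holds only preleukemic samples (n = 4, member medians of 8.24 to 8.49), and letters U and Y hold only leukemias. A fit with the letter as a random block had all WT samples share a block. In it 33 members were higher and 7 lower in Pax5+/- leukemia, and the share of all genes called is not given here. Because letter and stage are largely tied, this fit cannot separate them.

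Single members differed in how much they varied. The median SD over the members was 0.201 in Pax5+/- leukemias and 0.171 in Pax5+/- preleukemic samples, against 0.173 and 0.12 for all genes tested, and 45 of 77 members had the larger SD in leukemia. Mrpl35, with a bacterial counterpart, varied most, from 8.01 in leukemia 3 to 9.44 in leukemia 7 (SD 0.517), and also from 7.70 to 8.91 before leukemia, so its stage difference of 0.40 (SE 0.21) did not pass. Mrps18a (SD 0.391) and Mrpl13 (SD 0.355), a large subunit protein with a bacterial counterpart, followed, and in Mrpl13 leukemia 2 was the highest at 8.51 and leukemia 4 the lowest at 7.26. Mrpl28 (SD 0.08), Mrpl55 (SD 0.089) and Mrps12 (SD 0.09) varied least. Mrpl55 rose by 0.38 (SE 0.05) in Pax5+/- mice and by 0.36 (SE 0.09) in WT mice, while Mrpl28 rose by 0.20 (SE 0.06) in Pax5+/- mice and read 0.16 (SE 0.11) in WT mice.

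For 8 members the array has 2 probe sets. In a fit of all probe sets both passed in each genotype for Mrpl23 (0.73 and 0.74 in Pax5+/- mice), Mrpl51 (0.41 and 0.36) and Mrps5 (0.425 and 0.33). In Pax5+/- mice the probe sets of Mrpl41 read 0.26, which passed, and 0.145, which did not. Those of Mrpl47 read 0.68, which passed, and -0.10, which did not, in WT mice, and those of Mrps33 read 0.65, which passed, and 0.54, which did not. Mrpl27 and Mrps36 passed with neither. Whether each probe set detects the functional gene or a copy was not tested.

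Mitoribosomal proteins that have other symbols, Dap3, Ptcd3, Gadd45gip1 and Chchd1, rose in both genotypes, 4 of 4 measured, with medians of 0.40 and 0.52. Of 25 assembly and rRNA modification genes, 10 rose (40%, against 28% of all genes tested) and 3 fell (12%, against 36.5%) in Pax5+/- mice, with a median of 0.10. In WT mice 9 rose (36%, against 17.9%) and 0 fell (against 19.3%), with a median of 0.11. The values that follow are those of Pax5+/- mice. Rbfa, a factor for maturing small subunit rRNA, rose by 0.82 (SE 0.08), Noa1, a GTPase needed for the small subunit, by 0.81 (SE 0.09), and the rRNA methyltransferase Mettl15 by 0.60 (SE 0.08). Mettl17 and Nsun4, which also act in mitoribosome assembly, fell by 0.29 (SE 0.06) and 0.29 (SE 0.09), and Mterf3 by 0.25 (SE 0.09).

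Among all genes tested 28% rose and 36.5% fell in Pax5+/- mice, and 17.9% and 19.3% in WT mice. Of 18 translation factors 9 rose (50%) and 2 fell (11.1%) in Pax5+/- mice, with a median of 0.22. In WT mice 5 rose (27.8%) and 1 fell (5.56%), with a median of 0.28. In Pax5+/- mice Lrpprc, which stabilises mitochondrial messages, rose by 0.66 (SE 0.10), the release factor Mtrf1 by 0.51 (SE 0.08) and the elongation factor Tsfm by 0.38 (SE 0.07), whereas the initiation factor Mtif3 fell by 0.49 (SE 0.07) and the release factor Mtrf1l by 0.31 (SE 0.07). Of 16 mitochondrial aminoacyl-tRNA synthetases 8 rose (50%) and 2 fell (12.5%) in Pax5+/- mice, with a median of 0.24, and 5 rose (31.2%) and 1 fell (6.25%) in WT mice, with a median of 0.21. Iars2 rose by 0.97 (SE 0.09) and Fars2 fell by 0.45 (SE 0.07) in Pax5+/- mice. Of 16 genes for copying, transcribing and processing the mitochondrial genome, 7 rose (43.8%) and 3 fell (18.8%) in Pax5+/- mice, with a median of 0.19, and 6 rose (37.5%) and 3 fell (18.8%) in WT mice, with a median of 0.33. The falls in Pax5+/- mice were Mterf2 (-0.84), the polymerase Polg (-0.51) and its accessory subunit Polg2 (-0.57).

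Respiratory chain and ATP synthase genes of the nucleus have many partners that the mitoribosome makes. Of 79 such genes 34 rose (43%, against 28% of all genes tested) and 9 fell (11.4%, against 36.5%) in Pax5+/- mice. In WT mice 33 rose (41.8%, against 17.9%) and 2 fell (2.53%, against 19.3%). Their medians were 0.16 and 0.32, beside member medians of 0.16 and 0.33. Of 52 cytosolic ribosomal protein genes 40 rose (76.9%) and 0 fell in Pax5+/- mice, with a median of 0.27. In WT mice 43 rose (82.7%) and 0 fell, with a median of 0.35. The difference between these lists and the members was not tested.

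**Figure D5:**
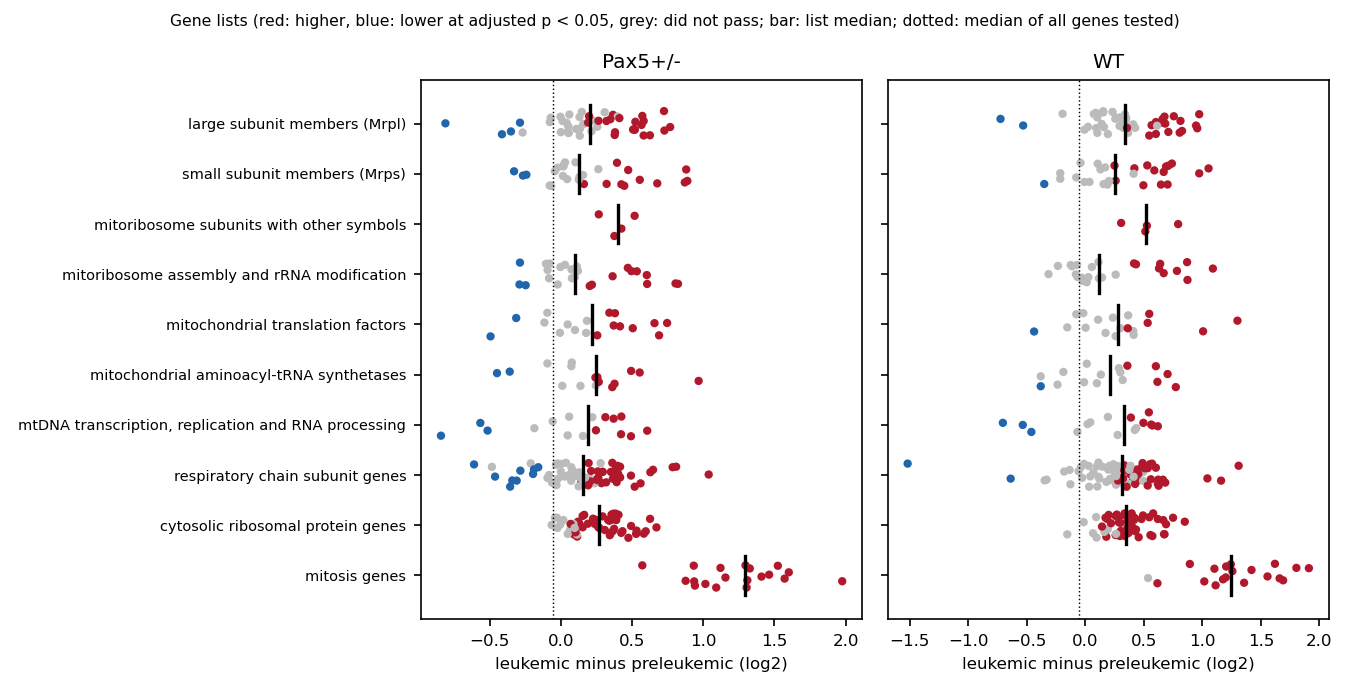
Difference between leukemic and preleukemic samples on the log2 scale (horizontal axes) for each gene of 10 lists in Pax5+/- mice (left) and WT mice (right), coloured by the limma call, with the list's median as a bar and the median of all genes tested as a dotted line. The member medians of 0.21 (Mrpl) and 0.13 (Mrps) in Pax5+/- mice lie to the right of the dotted line at -0.05, and the mitosis genes, at a median of 1.30, lie far beyond both.

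Of 9 genes for regulators of mitochondrial gene expression, 3 rose (33.3%, against 28% of all genes tested) and 5 fell (55.6%, against 36.5%) in Pax5+/- mice. In WT mice 2 rose (22.2%, against 17.9%) and 3 fell (33.3%, against 19.3%). In Pax5+/- mice Myc, a transcription factor that drives growth genes, rose by 3.62 (SE 0.34), and the coactivators Pprc1 and Ppargc1b rose by 1.34 (SE 0.17) and 0.74 (SE 0.14). The coactivator Ppargc1a fell by 1.42 (SE 0.08), Nrf1 by 0.53 (SE 0.07) and Gabpb1, a subunit of GABP, by 0.49 (SE 0.08). In WT mice Myc differed by 2.80, Ppargc1a by -1.40 and Nrf1 by -0.30, and these also passed.

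In the member promoters, the ETS letters CCGGAAGT were found on either strand in 12 of 74 windows (16.2%, against 3.89% of all 32851 windows), the NRF1 palindrome printed in capitals for Mrpl9 in 3 (4.05%, against 0.971%) and the YY1 motif in 5 (6.76%, against 0.852%). The E-box CACGTG, which MYC binds, stood in 7 windows (9.46%, against 7.15%), CCAAT in 29 (39.2%, against 37.4%) and the GC box GGGCGG in 39 (52.7%, against 35.7%). Matches of different motifs may overlap and windows of 1 gene share sequence. Of the 12 members with ETS letters 7 were higher and 1 lower in Pax5+/- leukemia, and of the 56 without them 21 were higher and 6 lower. In WT leukemia 5 of the 12 were higher and 1 lower, and 23 of the 56 were higher and 2 lower. Of the 5 members with an E-box 2 were higher and 1 lower in Pax5+/- leukemia, and 3 higher and 0 lower in WT leukemia. Among all genes tested 28% were higher and 36.5% lower in Pax5+/- leukemia, and 17.9% and 19.3% in WT leukemia. These are counts of letters and calls, with no test.

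The members with windows lie on 16 chromosomes, and 22 members have a neighbour that starts close by on the opposite strand. In a look chosen after the values had been seen, 20 members had a measured neighbour (Mrpl46 and Mrps11, which neighbour each other, count once each). Only 6 of these 20 members passed in Pax5+/- mice, and for 2 of them the neighbour passed as well. Among all genes tested 28% were higher and 36.5% lower. The 2 pairs were Mrpl2 with Klc4 (0.57 and -0.47) and Mrpl48 with Rab6a (0.38 and -0.34), each in opposite directions. The partner of Mrpl49, the ribosomal protein gene Fau, differed by -0.06 (limma adjusted p = 0.12) and that of Mrpl43, the helicase gene Twnk, by 0.05 (limma adjusted p = 0.699), so neither passed where the member fell.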

How the data were processed

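Bone marrow RNA of 23 mice was measured on 1-colour arrays, extracted with Trizol and biotinylated after fragmentation, per the labels' protocols. The authors deposited gene-level signals on a log2 scale. Transcriptome Analysis Console is named per the submitters' processing notes, without a version. How background was corrected and probes were summarized and normalized is not given in the sources used here. Deposited values ran from 3.65 to 14.2 on the log2 scale, with array medians from 6.06 to 6.2. Precision is limited by the number of arrays.

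Titles gave the groups. Each Pax5+/- sample has its own mouse number, and for WT samples the p-values measure the spread between samples. Of 28944 probe sets, 21789 carried 1 symbol, 1621 several and 5534 none, and 19938 symbols were kept, each with its probe set of highest mean. Genes above the 30th percentile of their array on at least 3 arrays (15542, with 4396 removed) were fitted with limma 3.58.1 in R 4.3.3 (lmFit, 4 groups together, two-sided eBayes that allows for an intensity trend). Adjusted p-values follow Benjamini-Hochberg over all of these genes, and 0.05 is the threshold. Stages were compared within each genotype and genotypes within each stage, and the interaction was tested. "Higher" and "rose", or "lower" and "fell", are used of genes past that threshold, SE is the standard error of the fit, and folds are 2 raised to the log2 difference.

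The members, gene lists, named genes and alternatives were chosen with earlier results of these data known. Named members were up to 8 of largest rise and fall past the threshold in each stage contrast, the 3 of smallest p in the other contrasts, the 3 of most and least spread among Pax5+/- leukemias, and members of known role (Mrpl3, Mrpl11, Mrpl12, Mrpl41, Mrpl44, Mrpl45, Mrpl58, Mrps12, Mrps16, Mrps18a, Mrps18b, Mrps18c, Mrps22, Mrps27, Mrps30, Mrps36). Up to 3 genes of smallest p were named per list and direction. Other named genes complete a count or were named after their values were seen. Mrps28 and Mrpl55 were not placed in a structural class, and Aurkaip1 was not matched. Promoter letters were searched in RefSeq windows of GRCm38.p6. Alternatives were other filters, array weights, eBayes with robust priors or no trend, centring on medians, quantile normalization, fits of only 2 groups, all or averaged probe sets, covariates (Xist, the non-B-cell marker component, mitosis genes), the mouse number letter as a block, and leaving out samples singly or together. The fit was tested on simulated data. Figures were drawn with matplotlib 3.10.9.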

Additional observations from a re-analysis of the deposited data

Results flagged for a closer look

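In 86 sets of group values of the members named, 6 had a sample whose gap to its nearest neighbour was large against the range of its group by Dixon's criterion, which chance alone gives in about 1 of 20 sets. In Pax5+/- preleukemic cells sample 24 was lowest for Mrpl1, a large subunit stalk protein (7.9, next 8.17), and for Mrpl12, the stalk protein that recruits translation factors (8.32, next 8.51). Sample 12 was lowest for Mrps16 (8.49, next 8.7) and highest for Mrps18a (9.3, next 9.06), and sample 11 was highest for Mrps11 (7.84, next 7.72). Among the Pax5+/- leukemias, leukemia 7 was highest for the stalled-mitoribosome hydrolase Mrpl58 (9.36, next 8.83). These samples did not take Mrpl12 out of the rises in Pax5+/- leukemia, which held under every left-out sample (0.47 to 0.52).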

How the results depend on the processing

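With array weights 1 member was higher in Pax5+/- than in WT preleukemic samples. With only the 2 WT groups fitted, or with Xist as a covariate, 1 member was lower in WT leukemia. With the first component of the non-B-cell markers as a covariate, 21 members were higher and 0 lower in each genotype, and the median differences were 0.30 (Pax5+/-) and 0.55 (WT). Mrpl13 (-0.11), Mrpl43 (0.0796) and Mrpl9 (0.26) then changed sign in Pax5+/- mice. With the mean of the mitosis genes as a covariate, 12 members were higher in Pax5+/- leukemia and 5 higher and 1 lower in WT leukemia, with a WT median of 0.19, while Mrpl13 (-0.00798) and Mrpl41 (-0.0346) changed sign in Pax5+/- mice. Without samples 15, 17 and 20 together, the median genotype difference in leukemia was -0.18 and the median interaction -0.23. The causes were not tested. With quantile normalization 24 members were higher and 8 lower in Pax5+/- leukemia (median 0.06), and 24 and 4 in WT leukemia (median 0.24). With the filter at the 50th percentile the members' counts stood, against 35.3% of all genes higher in Pax5+/- and 23.8% in WT leukemia. Leaving out each sample in turn gave 29 to 36 members higher, 6 to 8 lower and a median of 0.13 to 0.19 in Pax5+/- mice, and 20 to 35, 1 to 3 and 0.23 to 0.40 in WT mice. The median genotype differences were then 0.05 to 0.10 before leukemia and -0.13 to 0.02 in leukemia, the median interaction -0.19 to -0.04, and no member was called in these 3 contrasts. For most of these alternatives, those leaving out single samples included, the share of all genes called is not given here. Over 39 alternatives each, stage calls of the 42 named members were lost with their direction kept 37 times in Pax5+/- and 99 times in WT mice, beside the 5 changes of sign in Pax5+/- mice. Mrps21 in WT mice made up 27 of these. No paired analysis was possible because sample numbers are unique to each group. The letter block had a consensus correlation of -0.04.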
